A study of Mus musculus with 12 samples.

Results

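AP-1 is a dimeric transcription factor built from a Fos family protein and a Jun family protein, or from a pair of Jun proteins. Many of its genes belong to the early response genes, which cells transcribe within minutes of a growth or stress signal without new protein synthesis. In fibroblasts the early response genes are the textbook response to serum. At several of them serum response factor sits on a CArG box near the start, and its partners are switched on by kinase signaling. At some, CREB or ATF proteins act through a CRE. Estrogen receptor is known both to bind estrogen response elements and to act through AP-1 that is already on DNA, and the promoters of Fos and Jun are classical early targets of estrogen in reproductive tissue.

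The loci described here are those of 10 AP-1 or early response genes, Fos, Fosb, Fosl1, Fosl2, Jun, Junb, Jund, Atf3, Egr1 and Ier2, among 21884 protein-coding genes. A locus was the GENCODE M21 gene body with 50000 bp upstream, and every peak with its summit inside was taken, which gave 374 of the 658361 peaks of the series. The 10 windows covered 604702 bp and the peaks merged into 185 regions, of 435284 over the genome. A peak here is a stretch of DNA in which one library had more transposase-derived tags than its local background, and its fold enrichment is the ratio of these 2 quantities at the summit.

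ATAC-seq, which marks accessible DNA by the insertion of sequencing adapters, was performed on first-passage fibroblasts grown out of lower abdominal muscle (LAM) of Aromhum mice, here called hernia-associated fibroblasts (HAFs), in 12 libraries, 3 for each of 4 treatments. All cells came from this genotype, which carries a bacterial artificial chromosome with the human aromatase gene on the FVB/N background, so that no group lacks the transgene. The vehicle group had ethanol and DMSO, the E2 group 10 nM estradiol, the third group 10 nM E2 with 100 nM of the estrogen receptor antagonist fulvestrant, and the last 100 nM fulvestrant alone. Harvest followed 1 hour after E2 or ethanol, in cells that had been starved of serum overnight and given fulvestrant or DMSO beforehand. The sources do not say that libraries with different numbers came from separate animals, so each p-value measures the spread between these libraries, which may be technical. In bulk libraries, fewer cells with an accessible site and less access per cell cannot be told apart.

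The libraries differed strongly, and this touches every result below. Lists held 30062 to 110724 peaks, and 7.35% to 46.4% of them passed a q-value of 0.05. The number of tags expected per window by chance, a measure of relative depth, was 0.713 to 1.42. The 4 libraries numbered 1 had 22 to 36 peaks on the Y chromosome, whereas the 8 others had 854 to 1148. The methods name male mice, so the libraries numbered 1 stand apart, and results are given within them and without them where the direction changed. Fibroblast markers had a promoter peak in a median of 6.5 libraries over 8 genes, from 3 libraries for Lum and 5 for Dcn to 9 for Col1a1 and Col1a2. The median was 1 for 5 skeletal muscle markers, with Myod1 and Pax7 at 0, Myf5 at 1, Myog at 4 and Des at 6. It was 3.5 for 4 endothelial (2 to 5), 1.5 for 4 immune (1 to 3) and 2 for 4 epithelial markers (1 to 4).

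The sequences that carry the findings are the promoters of Fos, Fosb, Jun, Junb and Jund and the 2 upstream regions that were called repeatedly at Fos and Fosb. They were read from GRCm38, the sequence of mm10, on the strand of the gene, and contain no annotated exon. Capitals mark a match to a searched motif. The Fos promoter stretch is chr12:85473570-85473869 and ends 21 bp before the gene start. The CArG box near its left end is the serum response element of textbooks.
Fos promoter: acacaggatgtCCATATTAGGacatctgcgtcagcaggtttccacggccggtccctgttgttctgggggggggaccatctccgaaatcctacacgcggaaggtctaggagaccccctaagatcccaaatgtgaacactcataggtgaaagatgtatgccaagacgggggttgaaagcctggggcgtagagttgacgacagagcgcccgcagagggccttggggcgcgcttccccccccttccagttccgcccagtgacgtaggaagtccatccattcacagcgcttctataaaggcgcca
Fosb promoter: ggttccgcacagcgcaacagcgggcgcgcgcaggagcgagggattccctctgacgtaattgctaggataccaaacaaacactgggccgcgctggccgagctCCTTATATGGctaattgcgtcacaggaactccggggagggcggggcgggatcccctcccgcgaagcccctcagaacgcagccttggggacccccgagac
Junb upstream promoter region: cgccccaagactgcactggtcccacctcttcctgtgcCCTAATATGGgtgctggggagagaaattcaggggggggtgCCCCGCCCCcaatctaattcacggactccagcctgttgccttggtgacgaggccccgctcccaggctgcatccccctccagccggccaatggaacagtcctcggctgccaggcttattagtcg
Fosb was read at chr7:19310219-19310418, minus strand, and Junb at chr8:84980006-84980205, minus strand, around the summits of their called regions. Both have a CArG box in capitals, and the Junb stretch also has a GC box, the site bound by Sp1. The next pair has a CRE-like match. In Jund (chr8:70698719-70698918, plus strand) it is the full CRE, TGACGTCA, 214 bp before the gene start. In Jun (chr4:95052223-95052422, minus strand) it is TGACATCA, the variant through which Jun dimers with ATF proteins are known to act, 45 bp before the gene start.
Jund promoter: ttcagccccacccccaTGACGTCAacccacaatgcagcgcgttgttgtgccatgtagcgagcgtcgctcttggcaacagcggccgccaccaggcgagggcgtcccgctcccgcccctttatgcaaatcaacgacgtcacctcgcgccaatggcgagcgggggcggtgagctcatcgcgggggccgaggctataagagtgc
Jun promoter: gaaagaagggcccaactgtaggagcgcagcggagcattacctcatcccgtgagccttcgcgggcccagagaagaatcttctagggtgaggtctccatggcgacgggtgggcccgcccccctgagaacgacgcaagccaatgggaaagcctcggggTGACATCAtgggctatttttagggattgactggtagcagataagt
The upstream regions are chr12:85455297-85455496, plus strand, about the summit 18493 bp upstream of Fos, and chr7:19319917-19320116, minus strand, by the summit 10050 bp upstream of Fosb. Both are intergenic, and the second stops at the edge of the last exon of the noncoding RNA D830036C21Rik. Neither held a match to any searched motif.
Fos upstream region: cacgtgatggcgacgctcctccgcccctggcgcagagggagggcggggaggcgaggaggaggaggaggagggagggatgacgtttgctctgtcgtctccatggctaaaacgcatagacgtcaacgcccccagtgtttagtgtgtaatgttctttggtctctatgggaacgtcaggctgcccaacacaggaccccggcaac
Fosb upstream region: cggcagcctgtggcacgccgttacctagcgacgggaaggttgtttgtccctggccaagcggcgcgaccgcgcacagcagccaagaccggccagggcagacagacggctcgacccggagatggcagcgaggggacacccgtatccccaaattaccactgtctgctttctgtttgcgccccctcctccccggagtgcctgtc

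Promoter regions in the 10 loci, those of neighboring genes included, were called repeatedly in a larger share than promoter regions over the genome, and no single region was called in every library. Of the 185 merged regions, 18 (9.73%) were called in at least 6 libraries, beside 2.57% of all regions in the genome. Regions at a promoter, within 3000 bp of any annotated start, recur more often in general, and among these the figures were 16 of 93 (17.2%) in the 10 loci and 5.73% over the genome. At distal regions upstream of the genes, 2 of 84 (2.38%) recurred, beside 1.66% of all distal regions. These shares are descriptions, without a test. No region was called in more than 9 libraries, while 0.166% of all regions were called in all 12, and 122 of the 185 were called in only 1.

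**Figure D1:**
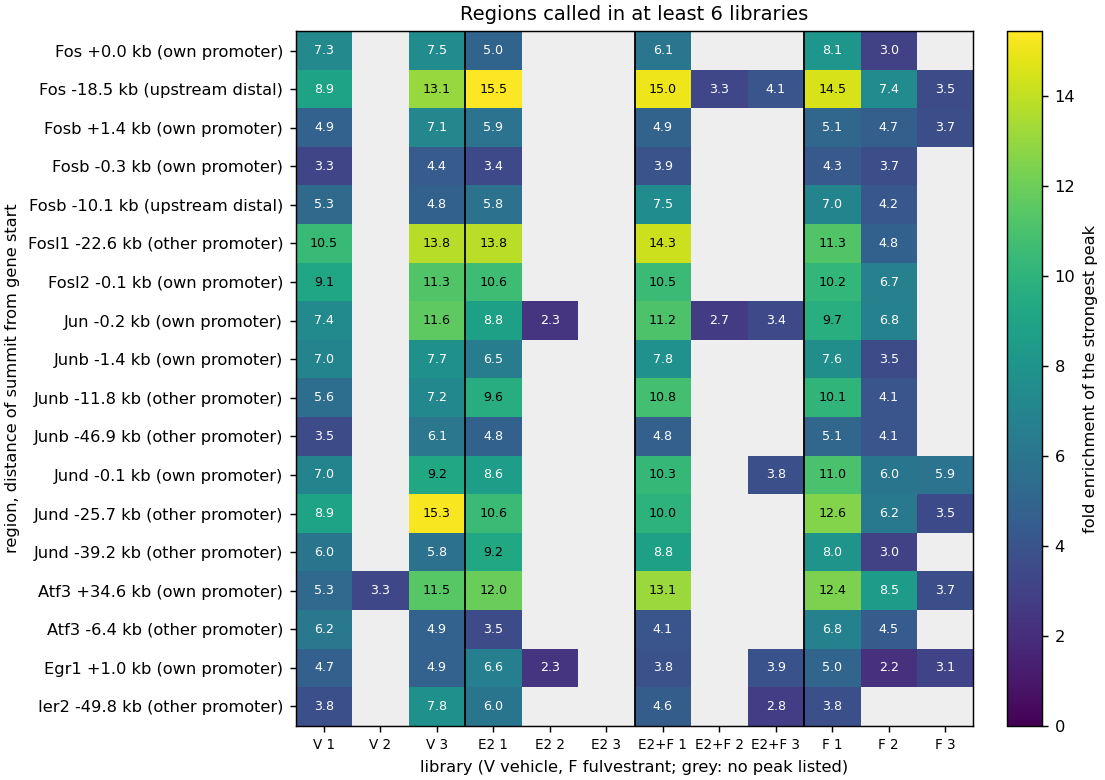
Fold enrichment of the strongest peak (color and number) in the 18 regions of the 10 loci that were called in at least 6 libraries, by region (rows, with the distance of the summit from the gene start in kb) and library (columns, by treatment and replicate number). Grey means that no peak was listed. Vehicle replicates 1 and 3 and replicate 1 of each of the other treatments list all 18 regions, and E2 replicate 3 lists none.

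The same libraries supplied these regions. All 18 were listed in vehicle replicates 1 and 3, in E2 replicate 1, in E2 plus fulvestrant replicate 1 and in fulvestrant replicate 1, and 17 in fulvestrant replicate 2. Fulvestrant replicate 3 listed 6 and E2 plus fulvestrant replicate 3 listed 5. Only 2 were listed in E2 replicate 2, 2 in E2 plus fulvestrant replicate 2, 1 in vehicle replicate 2 and 0 in E2 replicate 3. Outside the libraries numbered 1, vehicle replicate 3 and fulvestrant replicate 2 were the ones that listed more than 6. Each treatment had a library with all 18 and a library with 6 or fewer. The 6 libraries with the most are also the 6 with the highest share of peaks passing a q-value of 0.05, between 17.9% and 46.4%. The other libraries had 7.35% to 16.2%. Over all 11044 regions of this kind on numbered and sex chromosomes, 69.3% to 86.9% were listed in those 6 libraries and 34.5% to 52.8% in the others. The absence of a call does not show a closed site.

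Among the 18 regions, 9 lay at a start of the gene itself, 7 at the promoter of a neighbor and 2 in upstream DNA. The neighbors were D730003I15Rik beside Atf3, Drap1 in the Fosl1 window, Pgpep1 and Lsm4 in the Jund window, Nfix in the Ier2 window, and Hook2 and Asna1 in the Junb window. Of all 374 peaks, 121 were at the gene's own promoter, 122 at another gene's promoter, 120 in distal upstream DNA and 11 in distal parts of the gene bodies. The number of peaks in a locus thus counts neighbors as well. Ier2 and Junb, with compact genes in crowded neighborhoods, had 7.44 and 6.91 peaks per 100 kb and library, and Atf3 and Fosl2 had 3.33 and 3.82.

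Fos encodes the founding partner of Jun in AP-1. The region at its start (chr12:85473412-85474274) had a fold enrichment of 7.26 and 7.45 in vehicle replicates 1 and 3, 5.0 in E2 replicate 1, 6.08 in E2 plus fulvestrant replicate 1, and 8.09 and 2.97 in fulvestrant replicates 1 and 2. The values of E2 and E2 plus fulvestrant each came from a single library, inside the range of the other groups. A further peak of 3.60 lay within 3000 bp of a start in E2 replicate 3, so that 7 of 12 libraries had a Fos promoter peak and 5 had one with q of 0.05 or less.

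The region 18493 bp upstream of Fos (chr12:85454949-85455759) was called in 9 libraries, more than the Fos promoter itself, and 7 of these passed q of 0.05. No annotated start lay within 3000 bp of it, and the nearest was that of Fos. Its fold enrichment was 8.94 and 13.1 in vehicle replicates 1 and 3 and 15.5 in E2 replicate 1. With E2 plus fulvestrant it was 15.04, 3.31 and 4.07, and with fulvestrant 14.5, 7.43 and 3.52. Replicate 1 was the highest library in both groups with fulvestrant, and the ranges of all groups with more than 1 value overlapped. The Fos locus as a whole had 2, 1 and 2 peaks with vehicle, 4, 0 and 3 with E2, 3, 1 and 2 with E2 plus fulvestrant, and 5, 2 and 2 with fulvestrant, in the order of the replicate numbers.

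Fosb, a Fos relative with a stable splice form that builds up on repeated stimulation, was the only gene with 3 recurrent regions of its own or upstream. They lay 1382 bp inside the gene (7 libraries, fold enrichment 3.70 to 7.14), 268 bp before its start (6 libraries, 3.25 to 4.43) and 10050 bp upstream (6 libraries, 4.17 to 7.53). The upstream region (chr7:19319422-19320385) had 5.34 and 4.82 in vehicle replicates 1 and 3, 5.81 in E2 replicate 1, 7.53 in E2 plus fulvestrant replicate 1, and 7.0 and 4.17 in fulvestrant replicates 1 and 2. It was listed in at least 1 library of every treatment and in none of the 6 libraries with a low share of passing peaks. Peaks in the Fosb locus numbered 5, 5 and 4 with vehicle, 5, 3 and 1 with E2, 8, 1 and 1 with E2 plus fulvestrant, and 6, 4 and 4 with fulvestrant.

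The Fos-related antigens Fosl1 and Fosl2, which lack a strong activation domain, stood at opposite ends. Fosl2 had a promoter peak, meaning a summit within 3000 bp of any of its annotated starts, in 9 libraries. The median rank of the strongest, by p-value, was above 99.2% of the peaks of the same list. The region 84 bp before the first Fosl2 start (chr5:32135078-32136174) was called in 6 of the 9 libraries. Its fold enrichment was 9.06 and 11.3 in vehicle replicates 1 and 3 and 10.6 in E2 replicate 1. It was 10.5 in E2 plus fulvestrant replicate 1, and 10.25 and 6.72 in fulvestrant replicates 1 and 2. The 3 other libraries had their strongest peak elsewhere and lower. It was 3.72 in vehicle replicate 2, lying upstream of Fosl2 and 231 bp from the start of Gm10463, and 3.57 in E2 replicate 3 and 2.75 in E2 plus fulvestrant replicate 3, lying 11031 and 11223 bp into the gene near an internal start. Fosl1 had one in 7 libraries with a fold enrichment of 2.75 to 6.13 and a median rank by p-value above 49.0% of the list. Its q was 0.05 or less in only 2 libraries. The strongest region in the Fosl1 window was the promoter of Drap1, a subunit of the transcriptional repressor NC2, 22578 bp upstream and with a fold enrichment of up to 14.3. The Fosl1 locus had 4, 1 and 5 peaks with vehicle, 4, 2 and 1 with E2, 3, 2 and 5 with E2 plus fulvestrant, and 7, 1 and 2 with fulvestrant. In the Fosl2 locus the numbers were 5, 5 and 2, then 3, 3 and 2, then 3, 3 and 2, and last 1, 2 and 2, with only the fulvestrant group lacking any value above 2.

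Jun, which is known to activate its own gene, had a promoter peak in 10 libraries. The fold enrichment of the strongest was 7.35, 3.34 and 11.6 with vehicle, 8.79 and 2.29 in E2 replicates 1 and 2, 11.2, 2.70 and 3.43 with E2 plus fulvestrant, and 9.74 and 6.82 in fulvestrant replicates 1 and 2. High and low values occurred within each treatment, and the 3.34 of vehicle replicate 2 lay 1203 bp into the gene, outside the region called in the 9 others. The promoter region (chr4:95051385-95052918) has its summit 200 bp before the start of Jun, within an intron of the antisense gene Junos, so access for the 2 genes cannot be told apart there. Peak numbers at the Jun locus were 4, 5 and 5 with vehicle, 5, 2 and 0 with E2, 3, 6 and 3 with E2 plus fulvestrant, and 3, 1 and 0 with fulvestrant. Every vehicle library was thus above every fulvestrant library, as was the case for 4.6% of all 21576 genes with a peak.

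Junb and Jund, which are weaker activators than Jun and of which Jund is expressed in resting cells, had promoter peaks in 7 and 8 libraries. The Jund promoter region (chr8:70698298-70699338) had a fold enrichment of 6.99 and 9.21 in vehicle replicates 1 and 3, 8.61 in E2 replicate 1, 10.3 and 3.75 in E2 plus fulvestrant replicates 1 and 3, and 11.01, 6.01 and 5.86 with fulvestrant. It passed q of 0.05 in 7 libraries, and fulvestrant was the only group with a Jund promoter peak in all 3. The Junb region 1388 bp upstream had 6.96 and 7.75 in vehicle replicates 1 and 3, 6.49 in E2 replicate 1, 7.79 in E2 plus fulvestrant replicate 1, and 7.61 and 3.54 in fulvestrant replicates 1 and 2. All but the last of these values lay between 6.49 and 7.79. The Junb locus held 4, 3 and 6 peaks with vehicle, 6, 3 and 1 with E2, 8, 1 and 1 with E2 plus fulvestrant, and 7, 4 and 1 with fulvestrant. For Jund they were 3, 1 and 5, then 5, 1 and 1, then 6, 2 and 2, and last 5, 3 and 3.

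Atf3 encodes a stress-induced ATF protein that pairs with Jun. Its recurrent promoter region (chr1:191182357-191183906) was not at the start of the longest transcript but 34625 bp into the gene, 74 bp upstream of an internal start. Fold enrichment there was 5.31, 3.34 and 11.5 with vehicle, 11.97 in E2 replicate 1, 13.1 in E2 plus fulvestrant replicate 1, and 12.4, 8.5 and 3.72 with fulvestrant. It was called in all 3 vehicle and all 3 fulvestrant libraries and in 1 library of each of the 2 groups with E2, and the 8 libraries with a call do not separate any 2 treatments. The locus had 5, 5 and 2 peaks with vehicle, 4, 4 and 3 with E2, 6, 1 and 1 with E2 plus fulvestrant, and 5, 2 and 1 with fulvestrant.

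Egr1 and Ier2 encode early response proteins outside AP-1, a zinc finger factor and a nuclear protein. A peak within 3000 bp of an Egr1 start, on chromosome 18, was listed in 10 libraries. The strongest had a fold enrichment of 4.72 and 4.87 in vehicle replicates 1 and 3, 6.64, 2.29 and 3.66 with E2, 3.85 and 3.87 in E2 plus fulvestrant replicates 1 and 3, and 5.01, 2.19 and 3.13 with fulvestrant. The 3.66 of E2 replicate 3 lay 3008 bp into the gene, outside the recurrent region. The strongest peak within 3000 bp of an Ier2 start had 4.03, 3.57 and 4.79 with vehicle, 4.65 in E2 replicate 1, 4.13 in E2 plus fulvestrant replicate 1, and 5.41 and 3.28 in fulvestrant replicates 1 and 2. Of these, the 4.79 of vehicle replicate 3 and the 3.28 of fulvestrant replicate 2 lay upstream of Ier2, 926 and 907 bp from the start of Gm26664, which was nearer. Both genes had such a peak at least once in every treatment. Ier2 peaks numbered 6, 6 and 9 with vehicle, 5, 1 and 1 with E2, 8, 1 and 1 with E2 plus fulvestrant, and 6, 2 and 0 with fulvestrant. At Egr1 they were 3, 2 and 3, then 2, 1 and 1, then 4, 1 and 3, and last 2 in each fulvestrant library. The peak numbers of Ier2 had the largest spread of all 10 loci, from 0 to 9.

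**Figure D2:**
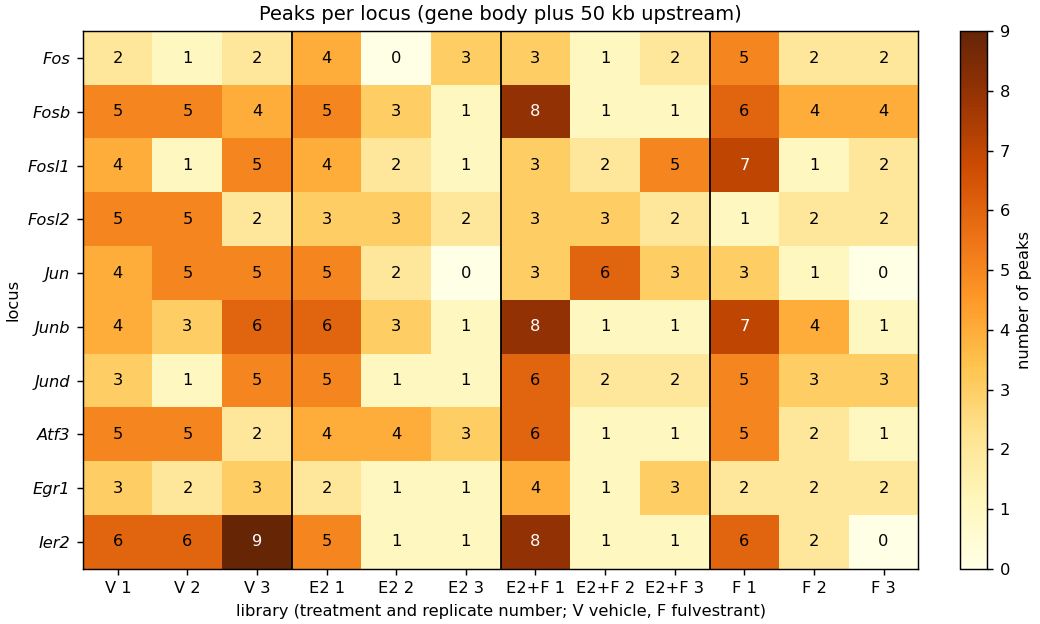
Number of peaks in each locus (rows) in each library (columns, grouped by treatment, with replicate numbers); color and number give the count. The column of replicate 1 is the highest or shares the highest summed count in E2, E2 plus fulvestrant and fulvestrant, with 43, 52 and 47 peaks.

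All 10 genes had a promoter peak in at least 6 libraries, with 7 as the lowest number, beside 45.2% of all protein-coding genes. In at least 9 libraries 11.8% of all genes had one, as did Jun, Egr1, Fosl2 and Atf3. None of the 10 was among the 0.759% with one in all 12. Within single libraries, 1 to 10 of the 10 genes had a promoter peak, while 17.3% to 62.7% of all genes did. All 10 did in vehicle replicates 1 and 3, beside 57.6% and 53.7% of all genes, and in replicate 1 of E2 (62.6%), E2 plus fulvestrant (60.2%) and fulvestrant (62.7%). In fulvestrant replicates 2 and 3, 9 and 5 of the 10 did, beside 29.6% and 19.5%. The numbers were 6 in vehicle replicate 2 (44.3%), 4 and 3 in E2 replicates 2 and 3 (25.5% and 17.3%), and 1 and 4 in E2 plus fulvestrant replicates 2 and 3 (20.1% and 22.2%). With q of 0.05 or less, 7 of the 10 genes had a promoter peak in at least 6 libraries, beside 14.6% of all genes, and the exceptions were Fos, Ier2 and Fosl1.

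**Figure D3:**
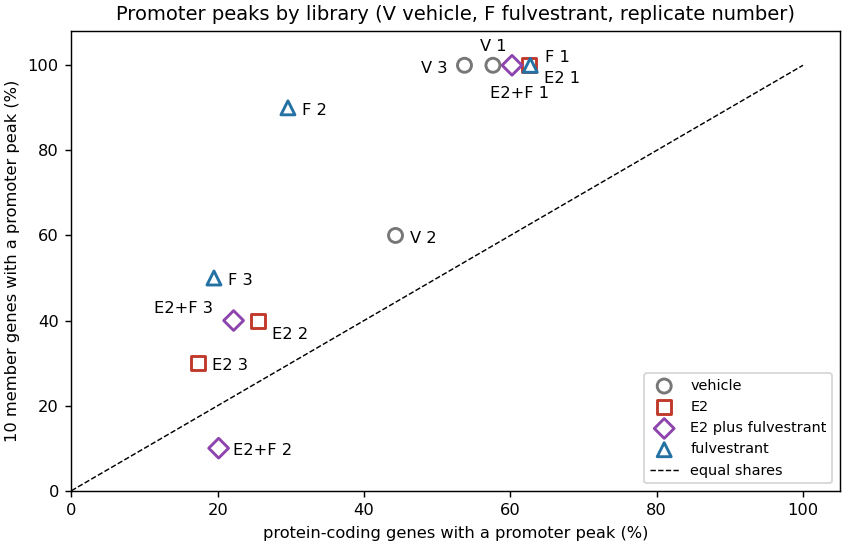
Share of the 10 genes with a promoter peak (vertical axis, percent) against the share of all 21884 protein-coding genes with one (horizontal axis, percent) in each library, by treatment and replicate number; the dashed line marks equal shares. All libraries but E2 plus fulvestrant replicate 2, with 1 of 10 genes beside 20.1% of all genes, lie above the line.

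Motifs were compared within 500 bp of each summit, in windows of 1001 bp and on both strands. A CArG box, the site of serum response factor, lay in 5 of the 18 recurrent regions (27.8%), beside 3.91% of all 11044 regions called in at least 6 libraries and 3.95% of those at promoters. The 5 were the promoters of Fos, Fosb, Junb and Egr1 and the Hook2 promoter in the Junb window. The Egr1 region held 5 of these boxes, 3 of them within 100 bp of the summit. In Fos the box lay 309 bp and in Fosb 266 bp before the gene start.

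The other motifs were found as follows. The AP-1 site (TGACTCA or TGAGTCA) was present in 3 of 18 (16.7%), beside 13.8% of all, namely at Fosl2, where it lay 53 bp past the gene start, and at the D730003I15Rik and Asna1 promoters. A full CRE (TGACGTCA) was found in 1, Jund, beside 2.92% of all and 5.26% of those at promoters. TGACATCA was found in 1, Jun, beside 3.70% of all and 3.48% of those at promoters. The GC box (GGGGCGGGG) was in 11 (61.1%), beside 15.6% of all and 29.6% of those at promoters. Neither the estrogen response element (GGTCA and TGACC spaced by 3 bases), present in 0.0724% of all, nor the EGR site (GCGTGGGCG), in 1.41%, was found in any of the 18. These matches describe the letters in the windows, and binding was not measured. Starts were also matched to RefSeq promoters of GRCm38.p6, which had entries for 7 of the 10 genes, all but Fosl1, Egr1 and Ier2. In the 250 bases upstream of the start, a CArG box is held by 1.47% of 32851 entries, a CRE by 1.55% and TGACATCA by 2.93%. Counted from the gene starts used above, the Jund CRE (214 bp) and the Jun TGACATCA (45 bp) lie within this span. The CArG boxes of Fos, Fosb and Junb (309, 266 and 1450 bp) lie outside it, so the 1.47% is no background for them.

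To ask whether E2 acting through its receptor changed access at these loci, E2 was compared with E2 plus fulvestrant. Averaged over 3 libraries, Atf3 and Fos had more peaks with E2, by 1 and 0.33 peaks per library. At 6 genes the mean was lower, and Fosl2 and Junb had the same mean. The largest decrease was at Jun, with 2.33 ± 2.52 peaks against 4.0 ± 1.73 (SD, n = 3), followed by Egr1 with 1.33 ± 0.58 against 2.67 ± 1.53, and both had an exact two-sided permutation p of 0.4. No locus had libraries of E2 that were all above or all below those of E2 plus fulvestrant, whereas 1.68% of 21576 genes with a peak were all above and 0.45% all below. The smallest p of 3 libraries against 3 is 0.10, so no gene could be called at 0.05, and all p-values adjusted over the 21576 genes were 1. The median difference was -0.667 peaks over the 10 loci and 0.333 over all genes, of which 52.3% had a higher and 33.4% a lower mean with E2.

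Summed over the 10 loci, the numbers of peaks were 43, 20 and 14 with E2 and 52, 19 and 21 with E2 plus fulvestrant, so the groups overlapped. The difference of the mean log2 sums was -0.26, with SDs of 0.83 and 0.80, and it was -0.27 within the libraries numbered 1 and -0.26 within those numbered 2 and 3. It was -0.72 without E2 replicate 1 and 0.20 without E2 plus fulvestrant replicate 1, and with 10000 bp upstream in place of 50000 bp it was 0.42. Scaled to 10000 peaks of the same list, it was -0.50. On that scale replicates 1, 2 and 3 had 5.46, 4.10 and 4.42 with E2. With E2 plus fulvestrant they had 8.54, 5.23 and 6.26, so the groups still overlapped. No test was made of this sum, since the genes were chosen with results of these data known.

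**Figure D4:**
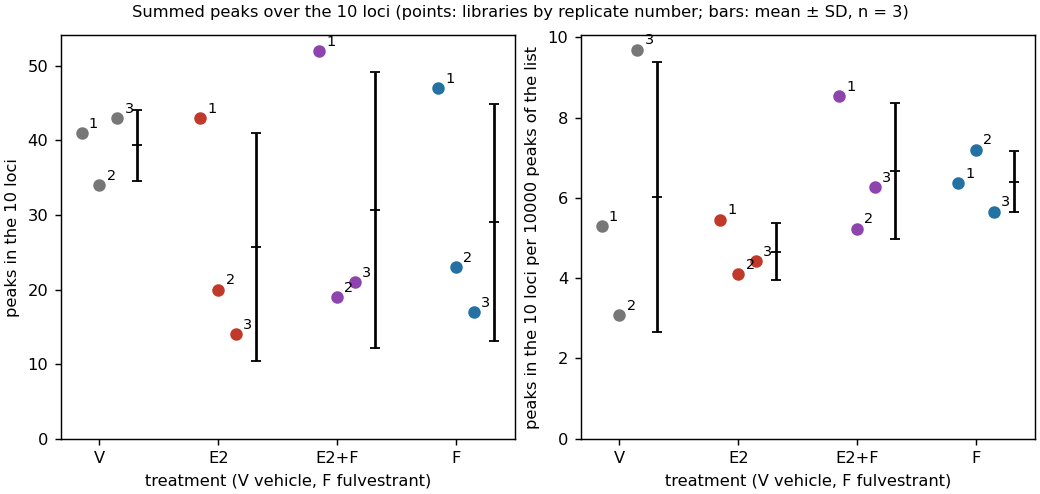
Peaks summed over the 10 loci by treatment (left, number of peaks; right, per 10000 peaks of the same list); points are libraries with their replicate numbers and black bars show mean ± SD (n = 3). Replicate 1 was far above replicates 2 and 3 on the left in E2, E2 plus fulvestrant and fulvestrant, and the groups overlap there. On the right, E2 (4.10 to 5.46) lies below fulvestrant alone (5.65 to 7.20), which was not tested. All other groups overlap on the right.

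Against vehicle, E2 had fewer peaks at 9 of the 10 loci and more at Fos. The largest difference was at Ier2, with 2.33 ± 2.31 against 7.0 ± 1.73 (SD, n = 3, exact p = 0.1, the smallest possible, adjusted p = 1). This was also the only locus where all E2 libraries were below all vehicle libraries, beside 3.24% of all genes. No locus was all above, beside 0.171%. Over all genes 76.4% had a lower mean with E2 and the median difference was -1, beside -1.17 over the 10 loci. Within the libraries numbered 1, 4 loci had more and 4 had fewer peaks with E2, and Ier2 had 5 with E2 and 6 with vehicle.

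Fulvestrant alone gave a lower mean than vehicle at 6 loci and a higher one at 2, beside 80.4% of all genes lower and 11.4% higher. Within the libraries numbered 1 it was lower at 3 loci and higher at 5. Jun, with 1.33 ± 1.53 against 4.67 ± 0.58 peaks (SD, n = 3, exact p = 0.1, adjusted p = 1), was the only locus where all libraries were below vehicle, beside 4.6% of all genes. None was all above, beside 0.167%. E2 plus fulvestrant gave a lower mean than vehicle at 6 loci and a higher one at 2, beside 81.7% of all genes lower and 10.7% higher. Within the libraries numbered 1 it was lower at 3 loci and higher at 7. For E2 plus fulvestrant against vehicle, no locus was separated in either direction, beside 5.63% of all genes lower and 0.153% higher. These 3 comparisons share the vehicle libraries and are not independent of each other. The summed log2 difference was -0.77 for E2, -0.57 for fulvestrant and -0.51 for E2 plus fulvestrant. Within the libraries numbered 1 the same differences were 0.07, 0.20 and 0.34, and within those numbered 2 and 3 they were -1.19, -0.95 and -0.94. Scaled to 10000 peaks of the same list, they were -0.22, 0.24 and 0.27. Vehicle replicate 2 had the longest list, with 34 of its 110724 peaks in the 10 loci, and its part in this change was not tested.

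With 6 libraries on a side, an unadjusted p under 0.05 is reachable. For the 6 libraries with fulvestrant against the 6 without, 5 loci had a higher and 5 a lower mean, beside 15.3% of all genes higher and 78.2% lower. Within the libraries numbered 1, 8 loci were higher and 2 lower. The smallest p was 0.184, at Fosl2, with 2.17 ± 0.75 against 3.33 ± 1.37 peaks (SD, n = 6, exact permutation test). For the 6 libraries with E2 against the 6 without, 9 loci were lower and Jun was higher, beside 72.7% of all genes lower and 19.5% higher. This turned within the libraries numbered 1, where 6 loci were higher and 1 lower. The smallest p was 0.303, at Fosb, with 3.17 ± 2.86 against 4.67 ± 0.82 (SD, n = 6, exact permutation test). All adjusted p-values were 1. No locus separated the 6 libraries from the 6 in either comparison, beside 0.00463% of genes higher and 0.0324% lower with fulvestrant, and 0% higher and 0.00463% lower with E2. Over all genes, the exact test called 0 of 21576 after adjustment in both comparisons, and 2.68% and 1.03% had an unadjusted p under 0.05. The smallest exact p of 6 libraries against 6 is 0.00216. After adjustment over 21576 genes, a call would need many genes near that p, so the lack of calls says little about single genes.

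Fold enrichment at the promoters was compared with limma. Each list was first centred on its median over the genes with a promoter peak in all 12 lists, also for the wider fit below. The fit over genes with a promoter peak in all 12 lists had 166 genes and none of the 10, and called 0 genes in each of the 4 comparisons (unadjusted p under 0.05 in 1 gene for E2 against vehicle and in 0 for the others). With genes in at least 9 lists, 4 of the 10 could be fitted, with missing values left out. For E2 against E2 plus fulvestrant the log2 differences were -0.98 ± 0.73 for Atf3, -0.25 ± 0.49 for Jun, 0.18 ± 0.51 for Fosl2 and 0.10 ± 0.37 for Egr1 (± SE), each with an adjusted p of 0.9997 in limma. Among 2581 genes in this fit 0 were called, and 5 had an unadjusted p under 0.05. Where no gene differs, a share of about 0.05 would have such a p, and the shares here were far smaller. The p-values of both fits thus ran high, and their lack of calls says little about single genes. Each difference for Jun, Fosl2 and Egr1 was smaller than its SE, and the value for Atf3 rested on 3 libraries, 2 with E2 and 1 with E2 plus fulvestrant. These do not measure 1 site. E2 replicate 1 and E2 plus fulvestrant replicate 1 had their peak at the internal start, and E2 replicate 2, with 2.33, had it 2935 bp upstream of the long transcript. The fitted values of Jun, Fosl2 and Egr1 likewise include the peaks named above that lie outside the recurrent region.

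No region of the 10 loci was called in all 3 libraries of a treatment and in none of another, in either direction, for E2 against E2 plus fulvestrant (122 regions with a call in these libraries), E2 against vehicle (129), fulvestrant against vehicle (114) or E2 plus fulvestrant against vehicle (131). Over the genome such regions were rare as well. They made up 0.137% (only E2) and 0.0416% (only E2 plus fulvestrant) of regions in the first comparison. In the others they were 0.0567% (only E2) and 0.0845% (only vehicle), 0.0495% (only fulvestrant) and 0.0993% (only vehicle), and 0.0371% (only E2 plus fulvestrant) and 0.121% (only vehicle). At such shares, this number of regions holds fewer than 1.

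The rest of the response was counted in the same way. Of 12 other bZIP genes related to AP-1, such as Jdp2 and Atf2, 7 had a promoter peak in at least 6 libraries, as did 18 of 22 other early response genes, such as Nr4a1 and Dusp1, and 13 of 16 genes for upstream kinases and factors, such as Srf and Elk4, beside 45.2% of all genes. In E2 against E2 plus fulvestrant, 0 of these genes had libraries that did not overlap, beside 1.68% of all genes higher and 0.45% lower. The median differences were 0.333, 0.333 and 0.5 peaks, beside 0.333 over all genes. The lists were drawn up with results of these data known.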

How the data were processed

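The data were 12 deposited peak lists, one per ATAC-seq library. Per the methods and the submitters' processing notes, the authors trimmed reads (Trimmomatic 0.39), aligned them to mm10 with Bowtie2, removed duplicates (Picard 2.21.4) and called peaks on shifted, extended tags (MACS2 2.2.71). Each deposited peak has a fold enrichment (the authors' ratio of pileup to local background, each with 1 added), a deposited −log10 p-value, a deposited −log10 q-value and a deposited whole-number score, which was not used. The smallest −log10 p-value was 2.01. Read totals are not in the lists. Tags per window were solved from fold enrichment and p-value (99.97% to 100% whole within 0.002), which gives relative depth.

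Groups and replicate numbers came from the labels. Peak summits were assigned with Python 3.11.15 to windows of GENCODE M21 genes on GRCm38, whose chromosomes fit the lists. All 10 members are named, and regions called in at least 6 libraries. Members, gene lists and tests were chosen with earlier results of these data known. Peak numbers were tested by exact permutation of libraries (two-sided) with Benjamini-Hochberg adjustment over 21576 genes, and promoter fold enrichment on the log2 scale with limma 3.58.1. Both were tested on simulated data. Alternatives were the q-value and fold thresholds, scaling, window, pairing and leaving out libraries. Read counts were not analysed here, and 1 gene of the upstream kinase list is not reported here.

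Libraries with the same number were checked for shared deviations. The correlations were -0.041 to 0.249, with a median of 0.067, and exceeded 0.1 in 6 of 18 pairs. Between libraries of different numbers the median was -0.047, and 1 of 36 pairs exceeded 0.1. Within number 1 the median was 0.159. The mean of each library was removed first, so a level shared by a number does not enter. Some deviation was thus shared by number, though the correlations were low. The main tests did not pair the libraries, and paired alternatives are given below.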

Additional observations from a re-analysis of the deposited data

Results flagged for a closer look

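Among the 6 libraries without E2, fulvestrant replicate 1 had 5 peaks at the Fos locus, while the other libraries had 1 or 2, and this gap was large for the range of the group by Dixon's test. Of 44 sets of 6 libraries tested in this way 1 was singled out, and chance alone does so in about 1 of 20. The library also had more peaks over the 10 loci (47) than the other libraries of fulvestrant (23 and 17).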

How the results depend on the processing

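The direction of most treatment differences depended on the processing. In all tests 0 genes were called after adjustment, and the tests of peak numbers could hardly have called any with so few libraries. For the summed log2 peak number, the planned q and fold thresholds gave sums of 0, so 1 was added after the data were seen. With q of 0.05 the differences became -1.13 (E2 against E2 plus fulvestrant), -2.43 (E2 against vehicle) and -1.63 (E2 against no E2), and with fold enrichment of at least 5 the last was -1.32. Per 10000 peaks, fulvestrant against vehicle was 0.24. Within number 1, E2, fulvestrant and both against vehicle were 0.0687, 0.20 and 0.34. In the 6 libraries with the highest share of passing peaks (chosen after seeing the data), E2 plus fulvestrant against vehicle was 0.31 and E2 against no E2 0.35. The first value set E2 plus fulvestrant replicate 1 against vehicle replicates 1 and 3. The second set replicate 1 of both E2 groups against vehicle replicates 1 and 3 and fulvestrant replicates 1 and 2. Genes whose groups did not overlap numbered 459, 736, 1028 and 1248 (E2 against E2 plus fulvestrant, then E2, fulvestrant and both against vehicle). They were 15, 120, 128 and 196 with q of 0.05, 1851, 1598, 1775 and 1928 per 10000 peaks, and 660 and 797 for the last pair with 10000 bp upstream. With the replicate block the genes whose paired differences all had one sign numbered 2457, 3400, 3807 and 4137 of 21576, Jund among the first. With 3 pairs the smallest possible p of exact permutation within replicate numbers is 0.25, so no member could have one under 0.05. Jund had this 0.25 for E2 against E2 plus fulvestrant, as did Egr1 and Ier2 for E2 against vehicle and Jun for fulvestrant against vehicle. With 6 libraries on a side, where a lower paired p is reachable, the smallest of a member was 0.185 (fulvestrant against none) and 0.148 (E2 against none).

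For E2 against E2 plus fulvestrant, differences in peaks changed sign with q of 0.05 at Fos (-0.333), Fosl1 (0.333) and Atf3 (-0.333), with fold enrichment of at least 5 at Fosb, Egr1 and Ier2 (0.333 each) and with 10000 bp upstream at Fosb (0.333). Within number 1 they were 1 at Fosl1, 2 at Jun and -2 at Atf3, and within numbers 2 and 3 the value was 1 at Fosb. Leaving out single libraries gave -0.5 to 1.5 at Fos, -1.5 to 2 at Fosb, -2.33 to 0.333 at Jund and -2.33 to 1.33 at Ier2, and changed no other sign at a locus with a difference. The causes were not tested. A missing peak is not shown to be a closed site.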
